A study of Mus musculus with 20 samples.

Results

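Gene expression in donor CD8+ effector T cells recovered from the small intestine was set against that in the same donor population recovered from the liver, on replicates 1 to 4 of each site. These are 8 of the 20 arrays of a study of lethal acute graft-versus-host disease in mice, in which peripheral blood and lung were also sampled. The recipients were female C57Bl/6 mice, 8 to 16 weeks old, that carry an ovalbumin transgene under the CAG promoter (m-act OVA), so that ovalbumin is made in most tissues. They received 11 Gy of total body irradiation and then bone marrow cells and splenocytes of OT-I donors, whose transgenic T cell receptor recognises an ovalbumin peptide. The OT-I T cells carried the CD45.1 allele, the other graft cells and the recipients carried CD45.2, and the cells were taken with magnetic beads against CD45.1 on day 4 after transplantation. Both sites share all of this, and the organ is the labelled difference. The RNA was amplified in repeated rounds before hybridisation, and the labels give no purity of the recovered fraction.

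Replicate 5 of both sites was left out because intestinal transcripts on those arrays went against the labels. The mean log2 signal of 5 Paneth cell genes was 5.91, 6.83, 2.50 and 7.28 on small intestine 1 to 4 and lay between -2.14 and -1.71 on liver 1 to 4. It was -2.92 on the array labelled small intestine 5 and 4.58 on the array labelled liver 5. Here 0 on the log2 scale is the 75th percentile of the array's signal. The 8 arrays were thus selected on measured signals of intestinal transcripts, so the contrast of replicates 1 to 4 is given as a description, with no p-value. Every p-value printed comes from a fit in which all 5 and 5 arrays keep their labels.

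An effector CD8 T cell divides many times after meeting antigen, leaves the lymph node and enters target organs, where perforin, granzymes and interferon gamma act on host cells. Entry into the gut wall depends on the chemokine receptor CCR9 and the integrin of the chains alpha 4 and beta 7, which are imprinted in gut-draining lymph nodes. Exit from tissue depends on sphingosine phosphate receptors under the control of the transcription factor KLF2.

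Across the 8057 genes with a probe well above background, signals were lower in the small intestine fraction more often than higher. The median log2 difference, small intestine minus liver, was -0.45, and 5339 genes (66.3%) lay below 0. A gene was called set apart where all 4 arrays of a site lay above all 4 of the other, the means differed by at least 1 on the log2 scale, and the probe was well above background on all 4 arrays of the higher site. By this rule 908 genes (11.3%) were lower and 56 genes (0.695%) were higher in the small intestine, 964 (12%) in all. Quantile normalization gave 640 lower and 162 higher. A gene's value is that of its brightest probe. Of 73 named genes with a difference of at least 1 in size, 13 had one over 1.5 times smaller with the mean of a gene's probes and 30 with normexp background correction, which adds an offset, and none changed sign under either. The median of all genes depends on the scaling: it was -0.33 with scaling on probes well above background on every array, -0.23 after quantile normalization and -0.84 with median scaling. For many lists, not all, the median less that of all genes is given too. In the fit of 5 and 5 labelled arrays (limma over all 20 arrays, Benjamini-Hochberg), 0 of 8057 genes (0%) passed an adjusted p of 0.05, 1782 had an unadjusted p under 0.05, and the lowest adjusted p was 0.143. Without liver 5 the same fit passed 309 genes and without small intestine 5 it passed 902, but these arrays were left out for their values, so the counts are no test of the sites.

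Signal levels of the arrays were compared, and RNA quality was not examined. The 75th percentile of signal lay between 1285 and 2603 on liver 1 to 4 and between 839 and 2097 on small intestine 1 to 4, with 28.5% to 34.1% and 26.1% to 30.4% of probes well above background. The lowest share was on small intestine 4. There 4883 of 8057 tested genes lay below all of liver 1 to 4, against 3594, 4328 and 1973 on small intestine 1 to 3. The 4 sites shared every slide, whose number is the replicate number. Taken within slides, as genes with the same sign on 4 of 4 slides, a mean difference of at least 1 and the same requirement on background, 1353 genes (16.8%) were lower and 95 (1.18%) higher in the small intestine. The number of arrays limits the precision, and since animals are not named per array, a p-value measures only the spread between arrays.

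T cell genes were detected at high level in both fractions, and 1 small intestine array stood at the level of the liver. The mean over 18 genes of CD8 T cell identity was 4.29, 3.59, 5.34 and 3.20 on small intestine 1 to 4 and 4.98, 4.90, 5.18 and 5.13 on liver 1 to 4. Small intestine 3 therefore lay above every liver array, and the other 3 lay below every liver array. All 18 differences were below 0, with a median of -0.98, which is -0.54 relative to all genes. Only Cd8b1, the CD8 beta chain, was set apart (1 of 18, against 11.3% of all genes). Its signal was 3.11, 1.82, 4.20 and 0.81 in the small intestine and 4.55, 4.76, 4.86 and 4.50 in the liver, a difference of -2.18 ± 0.75 (SE, n = 4 and 4). Cd3e, a chain of the T cell receptor complex, was 5.62, 4.92, 6.60 and 4.76 against 6.04, 5.96, 6.34 and 6.56, so the sites overlapped. Lck and Zap70, the kinases that carry the receptor signal, overlapped too, with differences of -0.58 ± 0.45 and -0.88 ± 0.50. Cd8a differed by -1.15 ± 0.62 and Ptprc, which encodes CD45, by -0.67 ± 0.60, both with overlap. In bulk RNA of this kind, fewer cells of a type and less RNA per cell cannot be told apart.

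**Figure D1:**
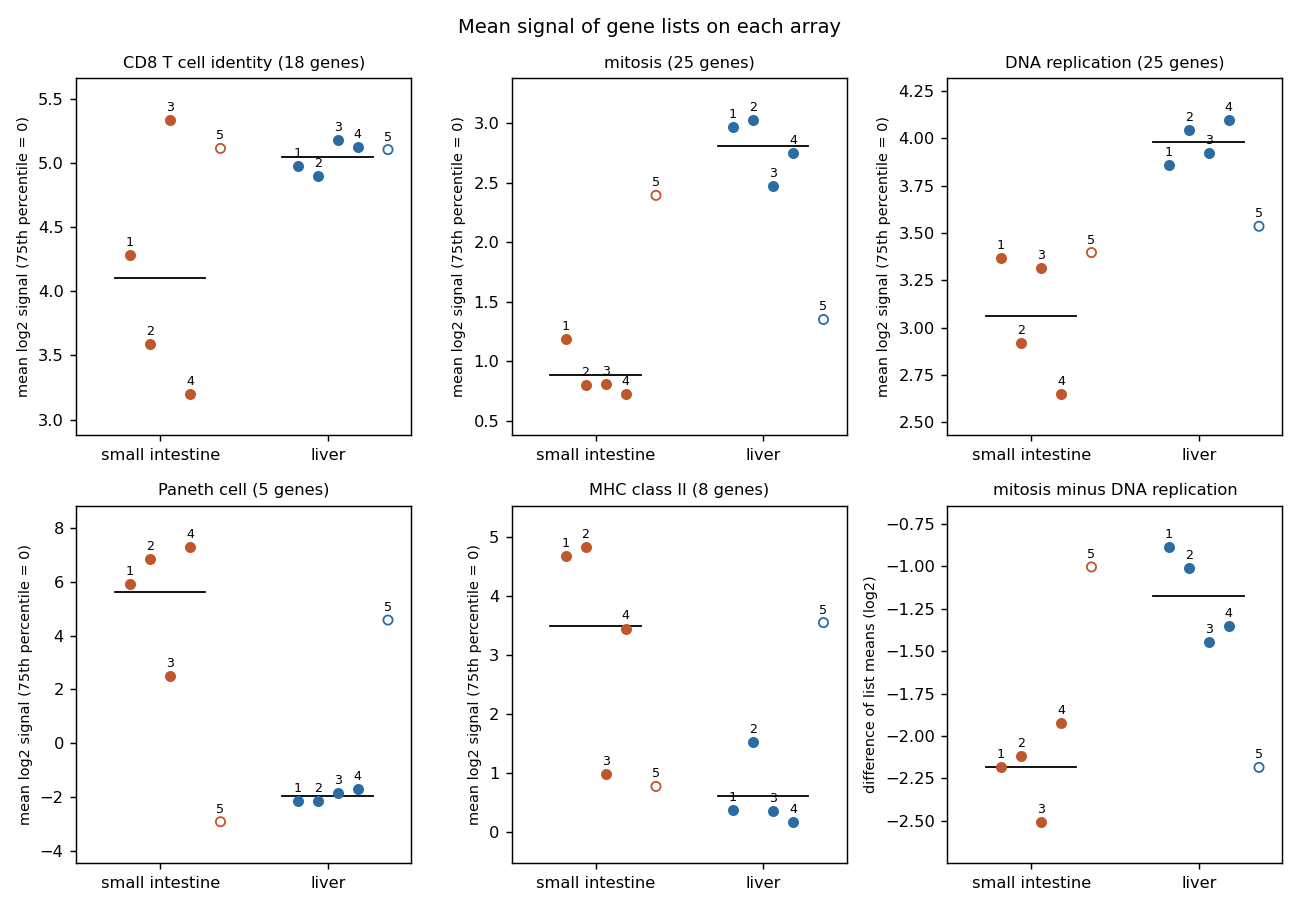
Mean log2 signal of 5 gene lists on each array, with 0 at the 75th percentile of the array, and the mitosis mean minus the DNA replication mean within each array (log2). Filled points are replicates 1 to 4 with their number, black lines their mean, and open points replicate 5, which is left out; the mitosis means of small intestine 1 to 4 lie between 0.72 and 1.18 and those of liver 1 to 4 between 2.47 and 3.03.

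Genes of mitosis were lower in the small intestine fraction on all 4 arrays. Of 25 tested members, 19 were set apart, all lower in the small intestine, against 11.3% of all genes, and the remaining 6 also had a mean below the liver's. The median difference was -1.77, or -1.33 relative to all genes. The mean over the list was 1.18, 0.80, 0.81 and 0.72 on small intestine 1 to 4 and 2.97, 3.03, 2.47 and 2.75 on liver 1 to 4. Small intestine 3, which had the highest T cell identity mean of the 8 arrays, had a mitosis mean of 0.81, below the lowest liver array. On that array 23 of the 25 mitosis genes and 1 of the 18 T cell identity genes lay below every liver array. Of all 8057 tested genes 1973 did so there. These counts rest on 1 array. Scaled to probes that were well above background on every array, 19 of 25 were again set apart, against 16 after quantile normalization, 17 with the mean of a gene's probes and 21 within slides, where 16.8% of all genes were lower. With that scaling 854 of all 8057 genes were set apart lower, after quantile normalization 640 and with the mean of probes 772.

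Foxm1, the transcription factor that switches on genes of the G2 and M phases, showed the widest difference downward of the 8057 tested genes. Its signal was -2.34, -2.72, -2.85 and -2.47 in the small intestine and 1.24, 1.31, 0.95 and 1.43 in the liver. The probe was well above background on every liver array and on no small intestine array, so the liver level was at least 3.43-fold higher, and the measured difference was -3.83 ± 0.15. With the mean of its probes the difference was -1.70. Cdca2, a chromatin phosphatase subunit of anaphase, was likewise not well above background in the small intestine, at -0.88, -2.50, -2.83 and -2.45 against 1.52, 1.90, 1.40 and 1.60, at least 4.44-fold. Kif23, a kinesin of the midbody, was at least 2.72-fold higher in the liver, with a difference of -2.61 ± 0.39. In the fit of 5 and 5 labelled arrays the limma adjusted p was 0.148 for Foxm1, 0.143 for Cdca2 and 0.143 for Kif23.

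Several mitosis genes were bright in both fractions, so that their difference did not rest on dim probes. Cdc20, the activator of the anaphase-promoting complex, was 3.53, 3.25, 3.62 and 3.81 in the small intestine and 5.27, 5.34, 5.29 and 5.53 in the liver, a difference of -1.80 ± 0.13. Cdca8, a subunit of the chromosomal passenger complex, was 3.67, 3.16, 3.65 and 3.55 against 5.36, 5.11, 4.73 and 4.90. Within each site the 4 arrays of these genes lay close together, and the gap between sites was wider than either range. Prc1, which bundles spindle microtubules, was 1.11, 0.64, 1.19 and 1.69 against 3.49, 3.50, 2.98 and 3.84. Ccnb1, cyclin B1, was 1.21, -0.14, 1.07 and 1.63 against 3.10, 3.08, 2.76 and 3.56, a difference of -2.18 ± 0.41. Tpx2, a spindle assembly factor, differed by -2.28 ± 0.36. With the mean of their probes Tpx2 differed by -0.92 and Cdca8 by -0.83, and neither was set apart. Mki67, the proliferation marker Ki-67, overlapped between sites: it was 4.09, 3.91, 1.90 and 1.97 against 5.78, 5.72, 3.17 and 3.51, with small intestine 1 and 2 above liver 3 and 4. Within slides it was lower on 4 of 4, by -1.68, -1.81, -1.27 and -1.54, and was set apart there. Birc5, which encodes survivin, did not overlap but differed by -0.92 ± 0.15, less than the size the rule asks.

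**Figure D2:**
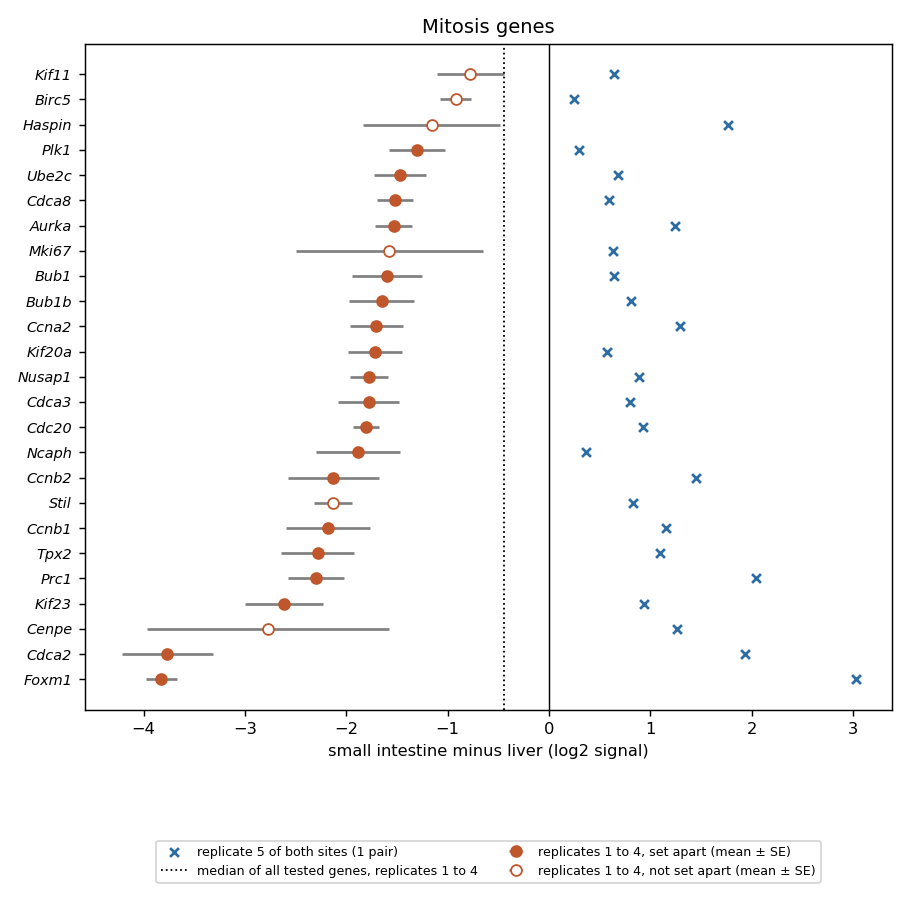
Log2 difference, small intestine minus liver, for the 25 tested mitosis genes; circles are means of replicates 1 to 4 with SE (n = 4 and 4), filled where set apart, crosses the difference of the replicate 5 pair, and the dotted line the median of all tested genes. All 25 circles lie below 0 and all 25 crosses above 0.

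Promoter sequence of these genes is shown because the members differed in the same direction, and CCAAT boxes, bound by the factor NF-Y, are known in promoters of genes of this phase. The sequences are RefSeq's for GRCm38.p6, the 120 bases before the annotated start on the gene's strand, with CCAAT or, on the other strand, ATTGG in capitals. Prc1 is shown for the first of its starts in the table.
Ccnb1, chr13:100786487-100786606, minus strand: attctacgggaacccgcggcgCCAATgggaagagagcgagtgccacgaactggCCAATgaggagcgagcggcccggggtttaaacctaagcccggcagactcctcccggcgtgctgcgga
Cdc20, chr4:118437344-118437463, minus strand: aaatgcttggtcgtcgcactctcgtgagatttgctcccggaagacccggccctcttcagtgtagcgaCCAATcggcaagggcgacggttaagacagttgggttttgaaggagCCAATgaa
Cdca8, chr4:124936918-124937037, minus strand: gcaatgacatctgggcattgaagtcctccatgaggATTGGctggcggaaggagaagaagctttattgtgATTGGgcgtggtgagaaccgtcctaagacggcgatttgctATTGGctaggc
Prc1, chr7:80294331-80294450, plus strand: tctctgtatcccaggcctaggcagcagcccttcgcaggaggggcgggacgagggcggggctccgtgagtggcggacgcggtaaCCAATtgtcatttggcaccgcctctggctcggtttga
Of the 25 tested mitosis genes 20 had an entry, with 21 promoters. In the 250 bases before the start, CCAAT on either strand was found in 17 of these 21 (81.0%), in 33.8% of all 32851 promoters and in 35.1% of the 8234 promoters of tested genes. It was found in 36.8% of the 958 promoters of genes set apart lower in the small intestine, and in 2 of 14 promoters of T cell identity genes. CCAAT was also in 16 of 25 promoters of tested DNA replication genes (64%) and in 9 of 16 promoters of alpha-defensin genes. It is thus not particular to the mitosis list. The motif TTTGAA on either strand, which lies within the cell cycle homology region, was in 6 of the 21 (28.6%) and in 16.0% of all promoters. A match describes letters, and no match says only that these letters are not in this window.

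Genes of DNA replication were lower on the same arrays, by less. Of 25 tested members, 12 were set apart, all lower in the small intestine, against 11.3% of all genes, and 4 had a mean above the liver's. The count was 7 after quantile normalization and 18 with median scaling, where 640 and 1630 of all 8057 tested genes were set apart lower. The median difference was -1.07, or -0.62 relative to all genes. Rrm2 and Rrm1, the subunits of ribonucleotide reductase, lay well apart: Rrm2 was 3.46, 2.91, 3.00 and 3.20 in the small intestine and 4.51, 4.57, 4.25 and 5.00 in the liver, and Rrm1 differed by -1.40 ± 0.22. Mcm2, a subunit of the replicative helicase, was 1.98, 1.31, 1.57 and -1.16 against 2.68, 3.42, 2.95 and 3.23, with small intestine 4 far below the rest. Mcm10 differed by -2.01 ± 0.56 and Tk1, thymidine kinase, by -1.69 ± 0.45.

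The mean of the mitosis genes minus the mean of the replication genes, taken within each array, is not changed by a scaling that shifts a whole array. It was chosen after the values were seen. It was -2.18, -2.12, -2.51 and -1.93 on small intestine 1 to 4 and -0.89, -1.01, -1.45 and -1.35 on liver 1 to 4, with no overlap and a difference of -1.01 ± 0.18. It was -1.06 ± 0.14 after quantile normalization, -0.88 ± 0.18 with the mean of a gene's probes and -0.54 ± 0.16 with normexp, each without overlap. Mitosis genes minus T cell identity genes overlapped, with -3.10, -2.78, -4.53 and -2.48 against -2.01, -1.87, -2.71 and -2.38, and liver 3 below small intestine 4. Replication genes minus T cell identity genes overlapped as well, with -0.92, -0.67, -2.02 and -0.55 against -1.12, -0.86, -1.26 and -1.03. Relative to the T cell genes of the same array, replication genes were thus lowest on small intestine 3, and small intestine 2 and 4 lay above every liver array.

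Regulators of the G1 phase differed by gene. Of 12 tested, 5 were set apart, all lower in the small intestine, against 11.3% of all genes, and the median difference was -1.17, or -0.72 relative to all genes. Ccnd3, cyclin D3, was 2.01, 2.02, 2.47 and 1.62 in the small intestine and 4.20, 3.85, 4.42 and 4.39 in the liver, a difference of -2.18 ± 0.22. E2f2, a transcription factor of S phase entry, was 1.16, 0.93, 1.76 and 2.53 against 3.57, 3.73, 3.91 and 4.24. The inhibitors Cdkn2c and Cdkn2d were also lower, by a mean log2 difference of -3.49 ± 0.65 and -1.82 ± 0.40, and Ccne1, cyclin E1, differed by -2.63 ± 0.75. With the mean of their probes Ccne1 differed by -1.10 and Ccnd3 by -1.33. The inhibitor Cdkn1a was instead at 3.45, 3.77, -0.45 and 0.58 against 0.07, 0.05, -1.04 and -0.93, highest on small intestine 1 and 2. Within slides it was higher on 4 of 4.

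Genes of egress and recirculation were lower in the small intestine. Of 12 tested, 5 were set apart, all lower, against 11.3% of all genes, and 1 had a mean above the liver's; the median difference was -1.41, or -0.96 relative to all genes. Klf2 was 4.96, 4.70, 4.73 and 3.26 against 5.71, 5.80, 5.35 and 5.86, a difference of -1.27 ± 0.41. Also set apart were Arhgef18 at -1.89 ± 0.42, Rasa3, a Ras GTPase activator, at -1.45 ± 0.53, and Klf3 at -1.37 ± 0.39. S1pr1, the receptor that leads T cells out of tissue, was 0.70, -0.48, 2.20 and -2.43 against 2.69, 2.21, 1.82 and 2.59, so small intestine 3 lay within the liver's range. Ccr7, the lymph node chemokine receptor, was 6.06, 6.21, 7.49 and 5.23 against 5.46, 5.90, 4.10 and 6.54, with overlap. The mean over the list minus that of the T cell identity genes overlapped between sites, at -2.13 ± 0.39 (SD, n = 4) in the small intestine and -1.80 ± 0.30 in the liver.

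Ccr9, the gut-homing chemokine receptor, was the member of 11 tested chemokine receptors that was set apart higher in the small intestine, against 0.695% of all genes. Its signal was 1.86, 0.40, 2.37 and -0.06 in the small intestine and -1.42, -3.18, -0.12 and -1.13 in the liver, a difference of 2.60 ± 0.86. The sites were separated by little, since small intestine 4 lay just above liver 3, and the probe was well above background on all 4 small intestine arrays and on 1 liver array. The array labelled small intestine 5 had 0.12 and the array labelled liver 5 had 1.43, and the 5 and 5 labelled arrays gave 1.82 ± 0.84 (limma SE; adjusted p = 0.22). Mean Ccr9 signal was -0.51 ± 0.95 (SD, n = 5) in lung and -0.26 ± 1.91 in blood. Ccr10, a receptor for the mucosal and skin chemokines CCL27 and CCL28, was set apart in the opposite direction, at -0.28, -2.67, -2.84 and -2.52 against 0.93, 1.03, 2.36 and 1.49. Cxcr3, a receptor of inflamed tissue, was 3.73, 1.77, 5.37 and 2.54 against 5.27, 4.77, 5.91 and 6.01, where small intestine 3 overlapped the liver, though within slides it was lower on 4 of 4. Cxcr6 overlapped widely, with a difference of -0.95 ± 1.29.

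Of 9 tested integrin chains, 4 were set apart, all lower in the small intestine, against 11.3% of all genes, and 2 had a mean above the liver's. The median difference was -0.98, or -0.53 relative to all genes. Those set apart differed as follows: Itgb1 by -2.35 ± 0.49, Itga4 by -1.77 ± 0.55, Itgal by -1.19 ± 0.35 and Itgb2 by -1.17 ± 0.42. With scaling on probes well above background on every array Itgb2 was no longer set apart, and with the mean of its probes Itga4 differed by -0.65 and was not either. After quantile normalization 2 of the 9 were set apart, where 640 of all 8057 tested genes were set apart lower. Itga4, the alpha 4 chain, was 3.81, 2.92, 4.44 and 1.94 in the small intestine and 5.23, 5.15, 4.98 and 4.84 in the liver. Its gut-homing partner Itgb7 was 6.64, 5.92, 7.69 and 5.89 against 6.79, 6.73, 7.32 and 7.47, with the highest value of the 8 arrays on small intestine 3. The integrin mean minus the T cell identity mean overlapped, with a difference of 0.11 ± 0.26. Of 6 tested genes of selectin ligand synthesis, Fut7, the fucosyltransferase that completes the ligand, was set apart, at 0.57, -0.06, 0.90 and 0.38 against 2.19, 1.50, 2.50 and 1.56, but not with the mean of its probes, which gave -0.53.

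**Figure D3:**
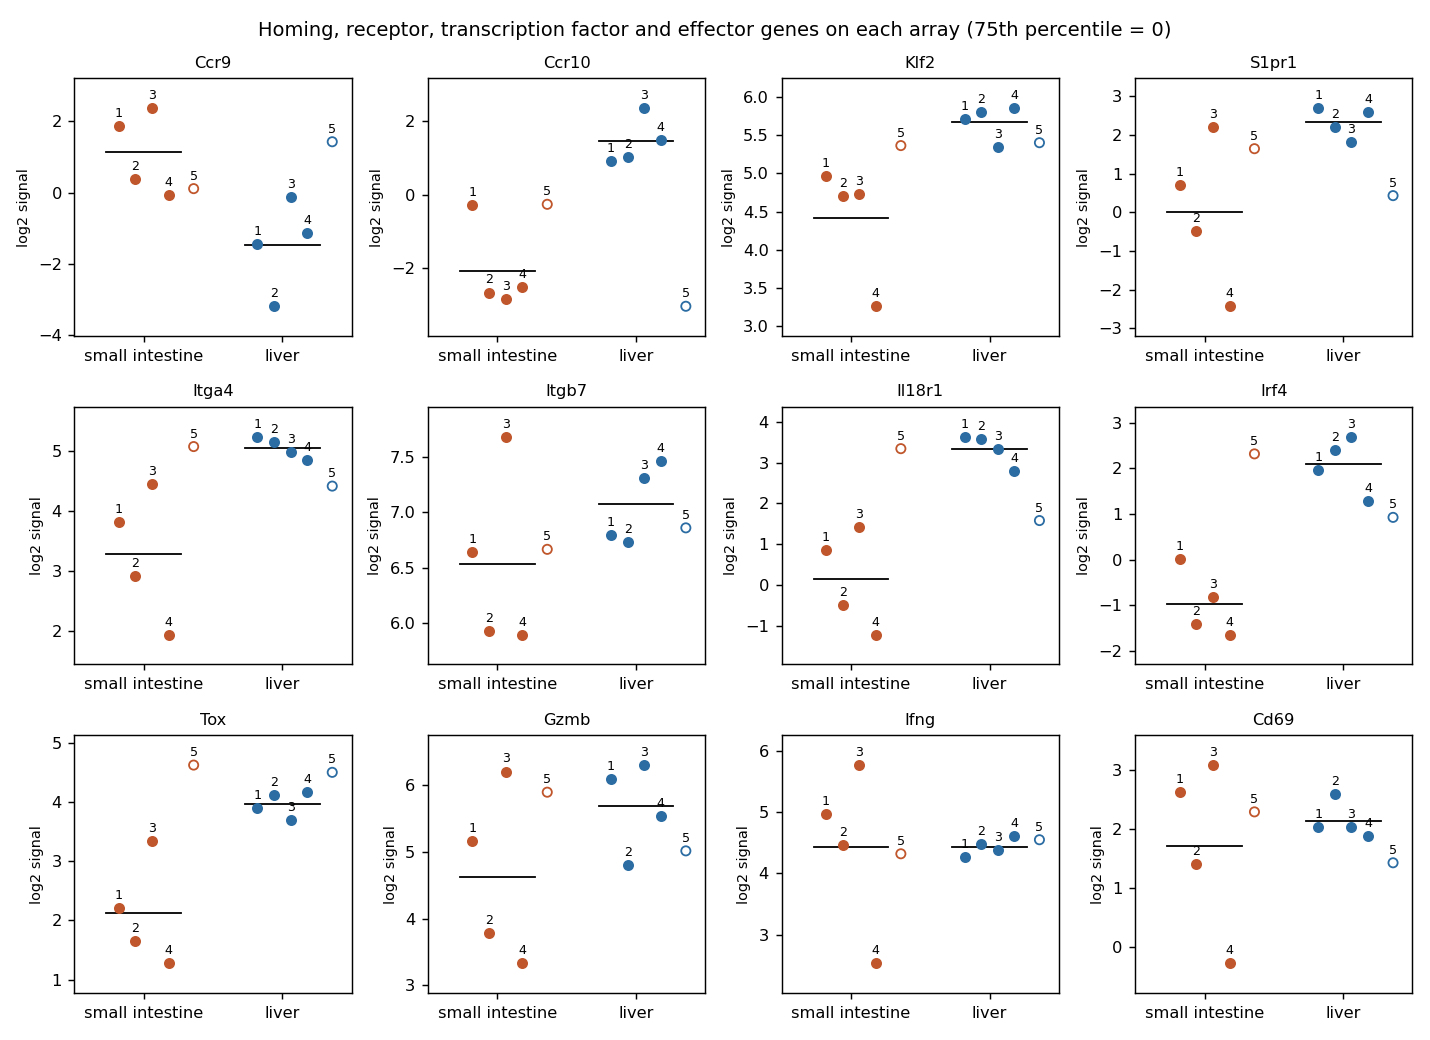
Log2 signal, with 0 at the 75th percentile of the array, of 12 homing, receptor, transcription factor and effector genes on each array of both sites; filled points are replicates 1 to 4 with their number, black lines their mean, and open points replicate 5. Klf2, Itga4, Il18r1, Irf4, Tox and Ccr10 have all 4 small intestine points below the 4 liver points, Ccr9 has them above, and Gzmb, Ifng, Cd69, S1pr1 and Itgb7 overlap.

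Of 9 tested cytotoxic genes and 8 tested effector cytokines, 0 were set apart, where 12% of all genes were, so counts this small show little about either list. The medians were -0.58 and 0.25, or -0.13 and 0.69 relative to all genes. With scaling on probes well above background on every array 1 cytotoxic gene was set apart lower, and within slides 2 were, Gzmb among them. Gzma, granzyme A, was 6.88, 6.18, 7.40 and 6.14 in the small intestine and 6.90, 6.03, 6.99 and 7.47 in the liver. Gzmb, granzyme B, was 5.16, 3.78, 6.20 and 3.33 against 6.09, 4.80, 6.30 and 5.54. On small intestine 3 both granzymes lay within the liver's range, while small intestine 2 and 4 had the lowest Gzmb of the 8. Prf1, perforin, was dim, well above background on 3 liver arrays and on no small intestine array, with a difference of -1.47 ± 0.60. Ifng, interferon gamma, was 4.97, 4.47, 5.77 and 2.53 against 4.28, 4.49, 4.38 and 4.61, and Tnf was 0.68, 1.24, -1.0 and -0.34 against -0.66, -0.65, -0.17 and -0.58. For both cytokines the small intestine arrays spread on either side of the liver's. Fasl, the Fas ligand, differed by -0.58 ± 0.64 and Il17a by 0.92 ± 1.37.

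Receptors for cytokines included 2 of 16 tested genes set apart, both lower in the small intestine, a share near the 11.3% of all genes. Il18r1, the interleukin 18 receptor, was 0.85, -0.50, 1.43 and -1.22 in the small intestine and 3.64, 3.59, 3.34 and 2.79 in the liver, a difference of -3.20 ± 0.64, or -1.38 with the mean of its probes. Il2rg, the common gamma chain, was 0.02, -1.59, 0.38 and -2.62 against 1.74, 1.52, 1.42 and 1.49. Both probes were well above background on 2 of the 4 small intestine arrays. The limma adjusted p in the fit of 5 and 5 labelled arrays was 0.143 for Il18r1 and 0.18 for Il2rg. Of 9 tested costimulatory receptors Cd27 was set apart, and of 10 tested inhibitory receptors and related genes only Tox, described with the transcription factors. Cd27 was at -1.03, -1.24, -0.82 and -0.39 against -0.12, -0.15, 0.45 and 0.66, well above background on liver arrays only, and with scaling on probes well above background on every array it was not set apart. Pdcd1, which encodes PD-1, was 5.60, 5.03, 6.42 and 5.93 against 5.95, 5.84, 6.24 and 6.31, with overlap, and Cd274, its ligand PD-L1, differed by 0.67 ± 0.19, also with overlap.

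Of 18 tested transcription factors of effector fate, Irf4 and Tox were set apart, both lower, a share near the 11.3% of all genes. The median of the list was 0.16, or 0.61 relative to all genes. Irf4, which sustains expansion after receptor signalling, was 0.02, -1.40, -0.83 and -1.64 in the small intestine and 1.96, 2.41, 2.70 and 1.29 in the liver, a difference of -3.05 ± 0.48. Tox was 2.20, 1.66, 3.33 and 1.28 against 3.90, 4.12, 3.69 and 4.16. Tbx21, the factor T-bet, was 5.45, 5.25, 5.72 and 6.23 against 5.44, 5.14, 5.63 and 5.27, with overlap, and its mean difference of 0.29 ± 0.24 turned to -0.10 with median scaling. Eomes was not well above background on any of the 8 arrays. Of 3 tested natural killer receptors, Klra7 was set apart, at least 1.80-fold higher in the liver, but not with the mean of its probes, which gave -0.85; Klra genes are near-identical copies, so their probes may share transcripts. Klra16, of the same family, was 1.36, 3.22, 0.83 and 2.24 in the liver and -3.00, -1.17, -0.41 and -2.62 in the small intestine, under the same limit. With the mean of its probes Klra16 differed by -0.89.

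Immediate early and NF-kB genes overlapped between sites or differed by less than the size the rule asks. Of 17 immediate early genes and 13 NF-kB genes tested, none was set apart, where 12% of all genes were, so these counts show little about either list. The medians were 0.20 and 0.17, or 0.64 and 0.62 relative to all genes. Both turned below 0 with median scaling, to -0.19 and -0.22, where the median of all genes was -0.84. Fos was 3.17, 4.03, 1.91 and 1.16 in the small intestine and 1.94, 2.88, 2.77 and 1.01 in the liver. Jun was 1.67, 2.26, 1.26 and 2.12 against 0.45, 0.99, 2.29 and 1.24, Nr4a1 differed by -0.24 ± 0.50, Dusp1 by -0.27 ± 0.48 and Cd83 by 0.81 ± 0.99. These are genes that antigen receptor signalling and tissue handling are both known to induce. Myc, well above background on 1 small intestine and 3 liver arrays, differed by -0.33 ± 1.17, and Cish, a STAT5 target, by 0.96 ± 0.71. Of 10 tested residency genes none was set apart, a count that shows as little beside the 12% of all genes. Their median was 0.03, or 0.48 relative to all genes. Cd69, which opposes egress, was 2.63, 1.41, 3.08 and -0.27 against 2.03, 2.59, 2.03 and 1.89. Cxcl1 was the only chemokine of 8 tested that was set apart, against 12% of all genes in either direction and 0.695% higher. The median of the chemokine list was 0.68, or 1.13 relative to all genes. Cxcl1 was 3.28, 3.53, -0.09 and 0.72 against -0.47, -0.82, -0.39 and -0.63. With scaling on probes well above background on every array Cxcl1 was not set apart. Cxcl10, induced by interferon, was 3.86, 4.10, 1.43 and 1.56 against 2.15, 2.71, -0.06 and 0.76, with overlap, though within slides it was higher on 4 of 4, by 1.71, 1.39, 1.49 and 0.80. Both chemokines were highest on small intestine 1 and 2, and among the liver arrays Cxcl10 was likewise highest on liver 1 and 2, which share those slides. The source of either transcript was not tested.

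Metabolic and stress lists held shares set apart near or below the 12% of all genes. Of 22 tested oxidative phosphorylation genes, 2 were (Sdha and Ndufs1, both lower by about the size the rule asks, at -1.02 ± 0.48 and -1.01 ± 0.33), and neither was with scaling on probes well above background on every array. All 22 had a mean below the liver's, with a median of -0.55, which is -0.10 relative to all genes. Of 19 tested glycolysis genes Slc2a3, the glucose transporter GLUT3, was set apart, at 0.44, -1.72, 1.37 and -0.98 against 1.92, 1.39, 1.62 and 1.71. Scd2 (1 of 9 cholesterol and lipid genes) differed by -1.02 ± 0.16 and Xaf1 (1 of 13 interferon-stimulated genes) by -2.08 ± 0.61, both lower in the small intestine. With the mean of its probes Xaf1 differed by -0.81. The median of the cholesterol and lipid list was 0.47, or 0.91 relative to all genes. Of 11 heat shock genes, 12 genes of the Bcl2 family and death, and 8 SOCS and STAT5 target genes tested, none was set apart.

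Outside the lists, the widest differences downward among named genes were those of Dusp7, a phosphatase of ERK, Klra16, given above, Sh2d3c, an adaptor of integrin and chemokine signalling, Phf11a, Nxpe3 and Fam53b. Dusp7 was -2.87, -2.52, -2.71 and -2.38 in the small intestine and 0.70, 0.60, 2.36 and 1.14 in the liver, at least 3.35-fold higher there. Sh2d3c was at least 6.40-fold and Fam53b at least 5.95-fold higher in the liver, with all 4 liver arrays between 1.82 and 2.64 for Sh2d3c and between 1.86 and 2.25 for Fam53b. Phf11a was at least 4.31-fold and Nxpe3 at least 4.21-fold higher. With the mean of their probes Nxpe3 differed by -1.55 and Fam53b by -0.89. Klra16 aside, none of the probes named here was well above background on a small intestine array. In blood the mean signal was 2.11 ± 0.54 (SD, n = 5) for Dusp7, 2.73 ± 0.50 for Sh2d3c and 2.46 ± 0.45 for Fam53b, so these genes were as bright in blood as in the liver.

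Among the genes higher in the small intestine fraction, all 5 tested Paneth cell genes and 4 of 8 tested genes of small intestinal epithelium were set apart, but these lists passed the filter on dim probes through the site where they are bright, and the rule for leaving out replicate 5 read such genes, so nothing is drawn from the counts. Paneth cells sit at the base of the crypt and secrete alpha-defensins, peptides that kill bacteria. Defa23 was 7.20, 7.87, 5.42 and 8.30 in the small intestine and -0.06, -0.27, -0.31 and -0.06 in the liver. Defa40 was 5.88, 6.93, 2.51 and 7.58 and was not well above background on any liver array, so it was at least 107-fold higher in the small intestine. Itln1, intelectin 1, a lectin of Paneth and goblet cells, was at least 83.4-fold higher. The alpha-defensins are near-identical copies, so their probes may share transcripts, and the 8 defensins among the 10 widest differences upward (Defa40, Defa42, Defa29, Defa23, Defa38, Defa39, Defa3 and Defa32) are not 8 separate measurements. Small intestine 3 had the lowest value of the 4 for each of the genes named in this paragraph.

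Upstream sequence is shown for 3 of these genes because near-identical copies can share signal, with the motif TATAAA in capitals, again RefSeq's 100 bases before the annotated start on the gene's strand in GRCm38.p6.
Defa23, chr8:21054940-21055039, plus strand: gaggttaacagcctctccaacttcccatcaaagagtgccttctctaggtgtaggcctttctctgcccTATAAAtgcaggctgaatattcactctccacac
Defa38, chr8:21096051-21096150, minus strand: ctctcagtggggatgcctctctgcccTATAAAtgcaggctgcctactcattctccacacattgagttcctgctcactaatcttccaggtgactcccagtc
Defa42, chr8:21456518-21456617, minus strand: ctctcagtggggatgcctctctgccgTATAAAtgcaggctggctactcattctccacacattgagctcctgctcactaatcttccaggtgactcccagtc
Defa38 and Defa42 share 97 of these 100 bases position by position. Set side by side without gaps, Defa23 shares 25 with Defa38 and 24 with Defa42. TATAAA begins at -33 in Defa23 and at -74 in the other genes, so the windows are shifted and these low counts do not measure likeness. The stretch around TATAAA reads nearly the same in all 3 sequences. Defa38 was 6.45, 7.36, 3.20 and 7.78 in the small intestine and Defa42 was 5.99, 7.06, 2.59 and 7.33, with small intestine 4 highest and small intestine 3 lowest in both. TATAAA on either strand was in the 250 bases before the start of 15 of the 16 alpha-defensin genes with an entry (93.8%) and in 12.4% of all promoters.

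Markers of other cells differed from array to array within the small intestine. Epithelial genes were highest on small intestine 2 and 4: Lgals4, galectin 4, was 2.36, 5.59, 0.55 and 6.46, against -0.52, -1.63, -1.03 and -0.64 in the liver, and Reg3g, an antimicrobial lectin, was 2.05, 3.62, -0.24 and 5.93. Lyz1, Paneth cell lysozyme, was 4.64, 5.72, -0.06 and 6.66. Fabp6, the ileal bile acid binding protein, was -0.19, 5.09, -0.17 and 2.48, and Krt18 was 2.48, 5.11, 0.18 and 5.39. Epcam, well above background on 1 small intestine array, and Fabp1, on none, were at or near background.

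Several macrophage genes, but not all, were instead bright on small intestine 1 and 2. Csf1r, the macrophage growth factor receptor, was 5.40, 5.86, -2.83 and -2.49, and C1qc, a complement chain, was 5.33, 5.55, -2.76 and -0.83. The mean of the 4 tested monocyte and macrophage genes was 4.06, 4.35, 0.64 and 0.72, against 1.17, 1.17, 1.39 and 2.19 in the liver. Of these 4, Itgam went the other way, with within-slide differences of -0.52, -0.50, -0.33 and -2.73. With the mean of its probes Itgam differed by 0.40, so its direction depends on the probe. The mean of the 2 tested genes of the Kupffer cell list, to which C1qc belongs, was -0.58, -0.63, -0.74 and -0.04. In the liver it was -0.37, 1.05, -1.57 and -0.96. Cd74, the MHC class II invariant chain, was 5.79, 6.10, 0.77 and 2.74 against -1.16, -0.35, -1.28 and -1.57, and the mean over 8 tested MHC class II genes was 4.69, 4.83, 0.98 and 3.45 against 0.37, 1.52, 0.36 and 0.17. Lgmn, a protease of the endosome, followed the same arrays at 5.66, 5.84, 0.10 and 1.11.

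Jchain, the joining chain of secreted IgA and IgM, was 5.72, 5.37, 4.52 and 2.43 in the small intestine and was not well above background in the liver, so it was at least 46.2-fold higher. Sdc1 and Derl3, of the plasma cell list, were also set apart, by 1.89 ± 0.35 and 1.13 ± 0.12. Itgax, the integrin CD11c, was set apart at 3.56, 3.58, 2.66 and 2.74 against 1.24, 0.99, 1.42 and 2.64, where small intestine 3 and liver 4 nearly touched, and with scaling on probes well above background on every array it was not. Gjb2, connexin 26, a gene outside the lists chosen after its values were seen, was 1.52, 1.05, 1.52 and 0.34 against -3.19, -2.98, -2.70 and -3.19, so that small intestine 3 was as high as small intestine 1.

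Of 3 tested hepatocyte genes 0 were set apart, where 12% of all genes were. With scaling on probes well above background on every array Apoa2 was, lower in the small intestine. Trf went the other way, by 5.57, 6.83, 0.02 and -2.08 within slides, and Hp differed by 0.05, -1.49, -0.85 and -6.14. The mean of the 3 genes was 1.92, 0.81, -1.65 and -2.34 in the small intestine and 0.32, -0.20, -1.18 and 1.34 in the liver, so the sites overlapped. Alb, albumin, Apob and Ttr were not well above background on any of the 8 arrays, and Apoa2 was 0.03, 0.22, 1.01 and 0.56 in the liver and -0.79, -2.09, 0.42 and -2.28 in the small intestine, with overlap. Clec4f, a marker of Kupffer cells, was well above background on 3 liver and 2 small intestine arrays, with overlapping signals. Neutrophil genes were high on liver 1, 2 and 4: S100a8 was 0.38, 0.61, -2.87 and 3.44, and it was not well above background on any small intestine array. The mean of the 4 tested neutrophil genes was 3.25, 3.39, 1.18 and 5.03 in the liver and 1.84, 1.59, 1.39 and 1.41 in the small intestine.

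Beside the lower mitosis genes, these markers take the following values. The T cell identity mean was lower on small intestine 1, 2 and 4 than on any liver array, the epithelial mean was 1.93, 4.47, 0.76 and 4.82, and the macrophage mean was high on small intestine 1 and 2. On small intestine 3 the epithelial mean (0.76) was the lowest of the 4 but above the highest of liver 1 to 4 (0.17). The Paneth cell mean (2.50) and the B and plasma cell mean (2.69) there also lay above liver 1 to 4 (highest -1.71 and 0.82). The macrophage mean (0.64) lay below the liver's and the T cell identity mean (5.34) above it. The mitosis mean (0.81) lay below the lowest of liver 1 to 4 (2.47). With small intestine 1 and 2 left out, an alternative added later, 1155 genes were set apart lower and 327 higher, and with small intestine 3 and 4 left out 1511 and 325. Without small intestine 3 alone the count was 2112 lower and 180 higher. In either direction these were 18.4%, 22.8% and 28.4% of all tested genes. Fewer arrays meet the rule more easily, so these counts do not compare with those of the 8 arrays. The part of other cells in the remaining differences was not tested.

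The replicate 5 pair went the other way for most genes. Of the 56 genes set apart higher, 54 (96.4%) had the opposite sign on replicate 5, with a median difference of -1.62 there against 2.13 on replicates 1 to 4. Of the 908 set apart lower, 835 (92.0%) had the opposite sign, with a median of 0.63 against -1.51. Over all tested genes the share was 73.8%. Among genes not set apart it was 89.3% of those higher and 60.6% of those lower. The genes set apart higher include intestinal genes of the kind read when replicate 5 was left out. For those the opposite sign was built into the choice of arrays. The mitosis list turned as a whole: all 25 genes were higher on the array labelled small intestine 5 than on the array labelled liver 5, with a median difference of 0.89. The T cell identity list did not turn as clearly, with 10 of 18 higher and a median of 0.05. Foxm1 was -0.02 on the array labelled small intestine 5, between the ranges of the sites, and -3.04 on the array labelled liver 5, below both. The mitosis mean minus the replication mean was -1.0 and -2.19 on these arrays, the first in the range of liver 1 to 4 and the second in that of small intestine 1 to 4.

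**Figure D4:**
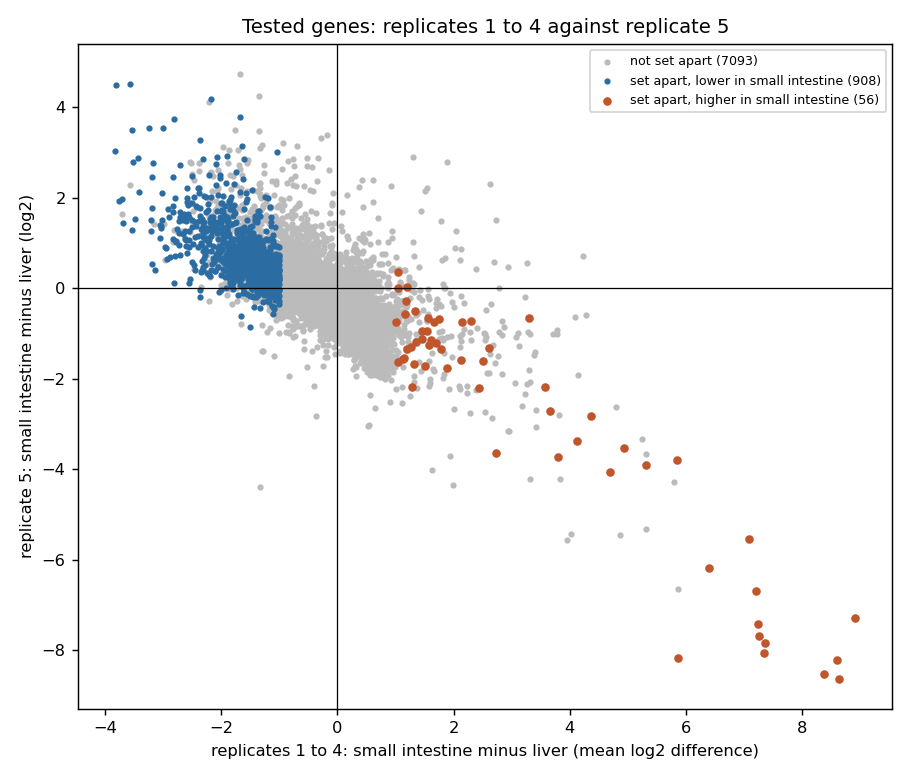
Mean log2 difference, small intestine minus liver, of replicates 1 to 4 (horizontal) against the difference of the replicate 5 pair as labelled (vertical) for the 8057 tested genes; colours mark genes set apart on replicates 1 to 4. Of 56 genes set apart higher 54, and of 908 set apart lower 835, lie on the other side of 0 on the vertical axis.

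Taking all 5 and 5 labelled arrays, 12 genes met the same rule, all lower in the small intestine: Arhgef1, Cklf, Fbxw8, Gpd2, Gtf3c1, Ints9, Kdsr, Mad1l1, Mapk7, Pacsin1, St3gal5 and a gene known by a clone number. They were chosen after their values were seen. Arhgef1 was 4.27, 3.63, 4.84, 3.14 and 4.93 in the small intestine and 5.35, 5.32, 5.05, 5.40 and 4.94 in the liver. Its highest small intestine value and its lowest liver value nearly met. Mad1l1, of the spindle checkpoint, was 0.40, 0.13, -1.55, -1.63 and 0.39 against 1.49, 1.86, 1.27, 0.80 and 0.43. Ints9, a subunit of the Integrator complex, was 1.91, 1.72, 2.36, 1.47 and 2.98 against 3.33, 3.08, 2.99, 3.12 and 3.02, a difference of -1.02 ± 0.24 (limma SE, adjusted p = 0.143). For each of the 3 the replicate 5 arrays of the sites nearly met, so the separation there is slight.

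Blood and lung place the mitosis difference among the 4 sites. The mean over the 25 mitosis genes was 2.78 ± 0.43 (SD, n = 5) in blood and 1.79 ± 0.58 in lung, against 2.81 ± 0.25 (n = 4) in liver 1 to 4 and 0.88 ± 0.21 in small intestine 1 to 4. Blood and liver were level within their spread, and lung lay between them and the small intestine. The DNA replication mean was 3.96 ± 0.21 in blood and 3.58 ± 0.33 in lung. Foxm1 had a mean of 0.87 ± 0.71 in blood and -1.13 ± 1.46 in lung.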

How the data were processed

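Gene expression was measured on 1-colour Agilent arrays, 5 per site. The authors deposited Feature Extraction output, version 11.0.1.1 per the file headers (10.7, with Partek, per the submitters' processing notes), in which intensity is background-corrected signal. They also deposited a log2 value table whose values match a quantile normalization of these signals (median absolute difference 0.0001172). Here log2 gProcessedSignal was taken minus the array's 75th percentile, spots of a probe were averaged, and each gene was taken by its brightest probe. Tested genes had that probe well above background on at least 4 of the 5 arrays of at least 1 site, and 20 probe values left out as non-uniform were filled with the site's mean. Probes were named by matching the transcript given in the scanner output to RefSeq transcripts. Of 39429 probes 27508 had 1 gene symbol by this match and 11921 were unnamed here. limma 3.58.1 (R 4.3.3) fitted all 20 arrays as labelled, with Benjamini-Hochberg adjustment over 8057 genes. A bound ("at least N-fold") sets the brighter site's mean against the dim site's mean of, per array, the lowest signal well above background or its own, whichever is higher.

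The members and lists were chosen with earlier results of these data known. The rule named the 10 set apart genes with the widest difference in each direction, clone names left out, up to 5 set apart members of each list, up to 5 further members of each T cell list, and set T cell and tissue genes whatever their values. Lgmn, Csf1r, C1qc, Gjb2, Cdkn1a, Birc5 and the 12 genes of the 10 arrays were named after their values were seen. Normexp used the median spot signal, since the mean signal was not used here. The alternatives were other scalings, normexp, the deposited values, the mean of a gene's probes, other filters and thresholds, a replicate block and leaving out each array. The steps were tested on simulated data. Versions of Python, numpy, pandas and matplotlib were 3.11.15, 2.4.6, 2.3.3 and 3.10.9. Some genes the rule names are not reported here.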

Additional observations from a re-analysis of the deposited data

Results flagged for a closer look

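Groups of 4 or 5 arrays were searched for a value far from the others, over 340 groups, and chance gives about 1 in 20. The search found 8 genes, 5 lists over replicates 1 to 4 and 11 lists over all 5 arrays. The values are mean log2 signals of a list, or log2 signals of a gene, with 0 at the 75th percentile of the array.

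Several lists had the array labelled liver 5 or small intestine 5 outside the other arrays of its label. On the array labelled liver 5 the Paneth cell mean was 4.58 (others -2.14 to -1.71), the small intestinal epithelium mean 2.45 (-0.61 to 0.17), and the B and plasma cell mean 2.81 (0.29 to 0.82). On the same array the mean of the fate transcription factors was 3.25 (1.99 to 2.32) and that of G1 cyclins and inhibitors 1.70 (2.60 to 2.76). On the array labelled small intestine 5 the mitosis mean was 2.39 (0.72 to 1.18).

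Small intestine 4 had a low NF-kB mean of 2.27, against 3.46 to 3.67 on replicates 1 to 3 and 3.31 to 3.67 with replicate 5. Its SOCS and STAT5 target mean was 0.77 (1.97 to 2.23) and its interferon-stimulated mean 1.38 (2.49 to 2.81). Its Klf2 signal was 3.26 (4.70 to 4.96). The endothelium mean on small intestine 2 was 1.56 (0.25 to 0.52).

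On liver 3 the egress mean was 2.95 (3.33 to 3.39) and the cholesterol and lipid mean 1.63, against 2.01 to 2.05 on replicates 1 to 4 and 2.00 to 2.05 on all 5. On liver 4 the SOCS and STAT5 target mean was 2.12 (1.67 to 1.74), and on liver 2 the MHC class II mean was 1.52 (0.17 to 0.37).

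Of single genes on replicates 1 to 4, Nxpe3 on small intestine 3 was at -0.76 (-2.59 to -2.32), Ccr10 on small intestine 1 at -0.28 (-2.84 to -2.52) and Ccne1 on small intestine 3 at -1.66 (0.98 to 1.32). Klra7 on liver 2 was at 0.97 (0.02 to 0.16), Cd8a on liver 4 at 4.37 (4.67 to 4.70), Tnf on liver 3 at -0.17 (-0.66 to -0.58) and Dusp1 on liver 3 at 1.69 (2.47 to 2.57).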

How the results depend on the processing

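In the limma fit of 5 and 5 labelled arrays 0 genes passed under every alternative that kept both replicate 5 arrays, the replicate block included, with 620 to 2717 genes at an unadjusted p under 0.05. Leaving out arrays gave 0 to 1401 genes: 309 without liver 5, 902 without small intestine 5 and 1401 without both. Of the latter 131 were higher and 1270 lower. These fits leave out arrays chosen by their values, so their counts are no evidence of a site difference. The count of 964 genes set apart moved to 1658 with median scaling (28 higher, 1630 lower), to 1490 with a difference of at least 0.58, to 229 with at least 2 and to 12 over all 5 and 5 arrays. It was 910 with scaling on probes well above background on every array, 774 with normexp, 840 with the mean of a gene's probes, 802 after quantile normalization (162 higher, 640 lower) and 803 in the deposited values (163 and 640). Leaving out 1 array gave 810 to 2292, the highest without small intestine 3. With small intestine 1 and 2 left out it was 1482, and with small intestine 3 and 4 left out 1836, both chosen after the data were seen. Fewer arrays meet the rule more easily, so such counts can rise for that reason. With the replicate block, which is the slide, the count was 1448 (95 higher, 1353 lower). Apart from the shared slide, nothing ties same-numbered arrays to an animal: their deviations correlated at 0.11, 0.07, 0.25, -0.02 and -0.37, and not every array correlated best with its own number. Ifng (0.11, 0.26 and 0.26 with scaling on those probes, quantile normalization and the deposited values), Dusp1 (0.16 and 0.17 with the latter settings) and Tbx21 (-0.10 with median scaling) changed sign, as did the medians of up to 9 of 37 lists under 1 setting. Itgam changed sign too, to 0.40 with the mean of its probes. The causes were not tested. Dim probes limit the low values, which are bounds.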
